A study of Bos taurus with 15 samples.

Results

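Autophagy delivers cell contents to lysosomes, where hydrolases break them down, and 30 genes of this route were followed in bovine skeletal muscle. They were chosen by name and by role, with earlier results of these data known. The list held 5 Atg8 family proteins, 3 cargo receptors, 2 initiation factors, 6 conjugation genes and 4 cathepsins. It also held 3 glycosidases, 4 genes of the lysosomal membrane and of cholesterol export, 2 proton pump subunits and the transcription factor TFEB. All 30 were found among the array's annotated probes, and each was read from its brightest probe. On the treated arrays 29 of the 30 lay well above background on all 8 arrays according to the scanner software. Alpha-galactosidase A (GLA) did so on 0 of 8 and had values on 5 control and 6 treated arrays only, so no difference is given for it. The 29 genes were part of 15062 named genes tested together.

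The samples were biceps brachii muscle of 15 cattle taken at slaughter, with 1 single-colour Agilent bovine array per animal. The labels give 8 animals (P25 to P32) dosed by mouth with prednisolone, a synthetic glucocorticoid, at 30 mg per head each day for 35 days. The other 7 animals (C17, C18 and C20 to C24) are labelled CONTROL. The protocol text of the control samples lists Finaplix, Revalor and a combination of Revalor and dexamethasone, which are growth promoters and a glucocorticoid, but does not say that these animals received them. No age, sex or breed was used here. RNA came from an RNeasy Mini extraction in every control and from TRIzol followed by RNeasy MinElute cleanup in every treated animal, so treatment and extraction cannot be told apart.

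In autophagy, the kinase ULK1 and the lipid kinase complex that holds BECN1 start a membrane sac. Proteins of the Atg8 family (the LC3 and GABARAP proteins) are then attached to its lipids by the ATG conjugation enzymes, and receptors such as SQSTM1 tie cargo to them. The closed autophagosome fuses with a lysosome, which a proton pump keeps acidic and in which cathepsins and glycosidases work. In skeletal muscle the route removes worn mitochondria and proteins, breaks down glycogen, and is known to run faster in fasting and in several kinds of wasting. TFEB drives transcription of many lysosome and autophagy genes. The arrays measure messenger RNA, not the flow of material through the route.

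Values are log2 intensities scaled to a common 75th percentile. The share of spots with a value ran from 72.1% to 87.4% over the arrays. The labelled tissue was met by its markers, with 9 of 9 measured muscle fibre genes clear of background on each of the 8 treated arrays. Some animals stood apart in transcripts of other organs. The mean log2 level of 7 testis germ cell genes ran from 6.74 to 12.16 in controls, highest in C20, and from 4.29 to 11.40 in treated animals, highest in P31. That of 3 thymocyte genes ran from 4.04 to 10.89 in controls, highest in C17, and from 3.71 to 9.77 in treated animals, highest in P30. Their part in the results was not tested, and values without C17, C20 or P31 are given beside those results below that these animals were seen to carry.

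No autophagy or lysosome gene passed the test for a difference between prednisolone and control muscle. With limma and Benjamini-Hochberg adjustment over all tested genes, 0 of 29 passed an adjusted p of 0.05, as did 0% of all genes, and each of the 29 had an adjusted p of 0.999. At an unadjusted p under 0.05 limma gave 0 of 29, against 3.25% of all genes (489). Without P31 it gave 1103 genes and without C20 369, each with 0 of 29. An exact Wilcoxon test on the same values gave 0 of 29 before adjustment too, with the smallest p of the 29 at 0.0541 for cathepsin D, and 417 of all 15062 genes. In 0 of 29 genes did the groups fail to overlap, against 0.199% of all genes. Log2 differences, prednisolone minus control, ran from -0.17 in CTSH to 0.26 in TFEB, with 17 genes higher and 12 lower and a median of 0.02. Over all tested genes 52.2% were higher and the median was 0.01. The split changed with the scaling: with cyclic loess in place of the shift 14 of 29 were higher, and with equal medians 18 of 29. It changed with single animals too, to 14 of 29 without P32 and 19 of 29 without P28.

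The data bound these differences. The 95% interval lay within a 1.5-fold change either way for 26 of 29 genes (89.7%) and within a 2-fold change for all 29 measured genes. The same bounds held 47.0% and 73.4% of all tested genes, and 62.4% and 89.3% of the 10180 genes that the scanner software put well above background on every treated array. The 3 genes whose interval crossed 1.5-fold were MAP1LC3A (0.83 to 1.51-fold), CTSL (0.85 to 1.55-fold) and NPC1 (0.63 to 1.41-fold). The median SD between animals of a group was 0.24 for the 29 genes, 0.34 for the genes above background and 0.41 for all tested genes.

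**Figure D1:**
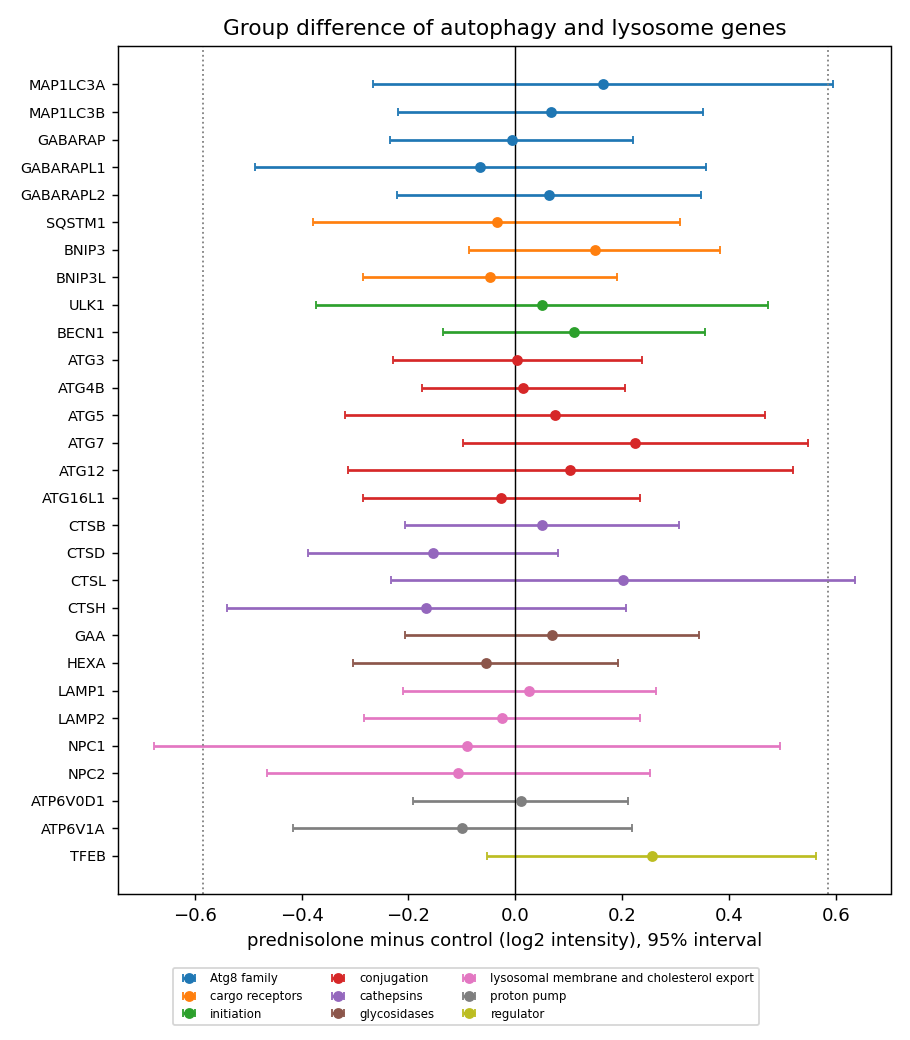
Difference between 8 prednisolone and 7 control animals (x axis, log2 intensity) for 29 autophagy and lysosome genes, coloured by role. Points are differences, bars 95% confidence intervals from limma, and dotted lines a 1.5-fold change; every interval holds 0.

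Exact permutation p-values of group differences come from all 6435 splits of the animals into groups of these sizes, two-sided. Among the Atg8 family the smallest limma p was that of MAP1LC3A, one of the LC3 proteins of the autophagosome membrane. It measured 11.38, 11.88 and 12.48 (lowest, median and highest) in controls and 11.36, 12.24 and 12.59 in treated animals. The groups covered nearly the same range, and 6 of 8 treated animals lay above the control median. The means were 11.92 ± 0.37 (SD, n = 7) and 12.08 ± 0.41 (SD, n = 8), a log2 difference of 0.16 (95% interval -0.27 to 0.59, exact permutation p = 0.427, limma adjusted p = 0.999). The other LC3 gene, MAP1LC3B, differed by 0.07 (95% interval -0.22 to 0.35). GABARAP and its relatives GABARAPL1 and GABARAPL2, which act late in autophagosome closure and cargo capture, differed by -0.01, -0.07 and 0.06. The widest scatter among them was in treated animals for GABARAPL1, whose SD was 0.48 against 0.23 in controls and which put 6 of 8 treated animals outside the control range, 3 below it and 3 above it.

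Of the cargo receptors, BNIP3, a mitochondrial outer membrane protein that marks mitochondria for removal, had the smallest p. Its control values were 12.79, 13.16 and 13.42 (lowest, median and highest) and its treated values 13.00, 13.29 and 13.50. All but 1 treated animal lay above the control median, within a range that both groups shared for the most part. The means of 13.14 ± 0.21 (SD, n = 7) and 13.29 ± 0.15 (SD, n = 8) differed by 0.15 (95% interval -0.09 to 0.38, exact permutation p = 0.131, limma adjusted p = 0.999). A separate BNIP3 probe gave 0.14 (95% interval -0.10 to 0.39). Without C17, C20 and P31 the BNIP3 difference was 0.25, past an unadjusted p of 0.05 but not the adjusted one (limma adjusted p = 0.771). Its relative BNIP3L differed by -0.05 and SQSTM1, the receptor for ubiquitin-tagged cargo, by -0.03. BNIP3L turned to 0.03 without C20 and P31.

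For both initiation genes the groups overlapped. BECN1, a subunit of the lipid kinase complex, measured 11.07, 11.30 and 11.68 (lowest, median and highest) in controls and 11.26, 11.44 and 11.67 in treated animals. All 8 treated values lay inside the control range, 7 of them above its median. The means of 11.36 ± 0.23 (SD, n = 7) and 11.47 ± 0.15 (SD, n = 8) differed by 0.11 (95% interval -0.13 to 0.36, exact permutation p = 0.282, limma adjusted p = 0.999). ULK1, the kinase at the head of the route, differed by 0.05 (95% interval -0.37 to 0.47).

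Of the 6 conjugation genes, ATG7, the enzyme that activates both ubiquitin-like systems, had the smallest p. It measured 6.97, 7.39 and 7.53 (lowest, median and highest) in controls and 7.11, 7.55 and 8.15 in treated animals. The upper treated values went past the controls, with 4 of 8 outside the control range, and the lower ones fell among them. The means of 7.32 ± 0.21 (SD, n = 7) and 7.55 ± 0.33 (SD, n = 8) differed by 0.22 (95% interval -0.10 to 0.55, exact permutation p = 0.145, limma adjusted p = 0.999). ATG3, which passes Atg8 proteins to lipid, and ATG4B, the protease that trims and frees them, differed by 0.004 and 0.02, and the sign of each changed with the scaling. ATG12 and ATG5, which are joined to each other, differed by 0.10 and 0.07, and ATG16L1, the partner of that conjugate, by -0.03. ATG5 had a separate probe, made for its RefSeq record, with a difference of 0.25 (95% interval -0.12 to 0.62). The ATG7, ATG12 and brighter ATG5 probes carry their gene names only through the description in the array annotation.

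Among the cathepsins, cathepsin D (CTSD), the main aspartic protease of lysosomes, had the smallest p. Controls measured 14.50, 14.62 and 14.92 (lowest, median and highest) and treated animals 14.16, 14.47 and 14.89. Of the 8 treated animals, 6 lay below the control median and 5 below the lowest control, while the highest treated animal was near the highest control. The means of 14.66 ± 0.13 (SD, n = 7) and 14.51 ± 0.21 (SD, n = 8) differed by -0.15 (95% interval -0.39 to 0.08, exact permutation p = 0.118, limma adjusted p = 0.999). The cysteine proteases CTSB and CTSH differed by 0.05 and -0.17 (95% interval of CTSH -0.54 to 0.21). Without C20 and P31 the CTSH difference was -0.07, and without C17 as well it was -0.165. Cathepsin L raised a question of naming: the bright probe that the array calls CTSL belongs to a record that the RefSeq table names CTSV, and it gave 0.20 (95% interval -0.23 to 0.64). The probe of the gene that RefSeq names CTSL was above background on only 5 of 8 treated arrays, and it gave 0.29 (95% interval -0.41 to 0.997). The name CTSL below stands for the bright probe.

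Of the glycosidases, acid alpha-glucosidase (GAA), which frees glucose from lysosomal glycogen and whose loss causes Pompe disease, measured 9.82, 10.06 and 10.57 (lowest, median and highest) in controls and 10.03, 10.16 and 10.54 in treated animals. Every treated value lay inside the control range. The means of 10.15 ± 0.26 (SD, n = 7) and 10.22 ± 0.19 (SD, n = 8) differed by 0.07 (95% interval -0.21 to 0.34, exact permutation p = 0.565, limma adjusted p = 0.999). HEXA, the alpha subunit of beta-hexosaminidase, differed by -0.06 (95% interval -0.30 to 0.19).

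In the lysosomal membrane group, NPC2, the soluble protein that hands cholesterol to NPC1, had the smallest p. It measured 10.54, 11.15 and 11.43 (lowest, median and highest) in controls and 10.40, 11.06 and 11.39 in treated animals, with 1 low control (C20) and 2 low treated animals (P30 and P31). The means of 11.07 ± 0.29 (SD, n = 7) and 10.96 ± 0.35 (SD, n = 8) differed by -0.11 (95% interval -0.47 to 0.25, exact permutation p = 0.53, limma adjusted p = 0.999). NPC1, the membrane transporter, had the widest interval of the 29 genes, at -0.09 (95% interval -0.68 to 0.50). Its treated median lay 0.21 above the control median while its treated mean lay below. LAMP1, a heavily glycosylated coat protein of the lysosomal membrane, differed by 0.03, and under quantile normalization by -0.02.

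LAMP2, the related membrane protein, was read by 2 probes that gave opposite signs. The brighter probe, described in the array annotation as similar to the human LAMP2B form, gave -0.02 (95% interval -0.28 to 0.23). The other, described as similar to LAMP2A, the form known as the receptor of chaperone-mediated autophagy, gave 0.17 (95% interval -0.08 to 0.42). Both probes are assigned to the same RefSeq record, so neither was matched to an isoform here. Within groups they correlated at r = 0.20 across 15 animals, whereas the BNIP3 probes did so at 0.62 and the ATG5 probes at 0.63.

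Of the proton pump subunits, ATP6V1A, the catalytic subunit, measured 9.61, 9.98 and 10.52 (lowest, median and highest) in controls and 9.60, 9.83 and 10.50 in treated animals. The highest animal of each group was C20 and P31, the pair with the highest testis germ cell transcripts, and of the 8 treated animals 6 were under the control median. The means of 10.00 ± 0.27 (SD, n = 7) and 9.90 ± 0.28 (SD, n = 8) differed by -0.10 (95% interval -0.42 to 0.22, exact permutation p = 0.491, limma adjusted p = 0.999). ATP6V0D1, of the membrane sector, differed by 0.01 (95% interval -0.19 to 0.21), and by -0.02 with cyclic loess.

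TFEB had the largest difference and the smallest limma p of the 29 genes. It measured 5.78, 6.58 and 6.90 (lowest, median and highest) in controls and 6.46, 6.73 and 6.90 in treated animals. All 8 treated values lay inside the control range, 7 of them above the control median, and the lowest control value was that of C20. The means of 6.48 ± 0.35 (SD, n = 7) and 6.73 ± 0.15 (SD, n = 8) differed by 0.26, or 1.19-fold (95% interval -0.05 to 0.56, exact permutation p = 0.0673, limma adjusted p = 0.999). Without C20 the difference was 0.14, and without C21 it was 0.33, past an unadjusted p of 0.05 but not the adjusted one (limma adjusted p = 0.974).

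**Figure D2:**
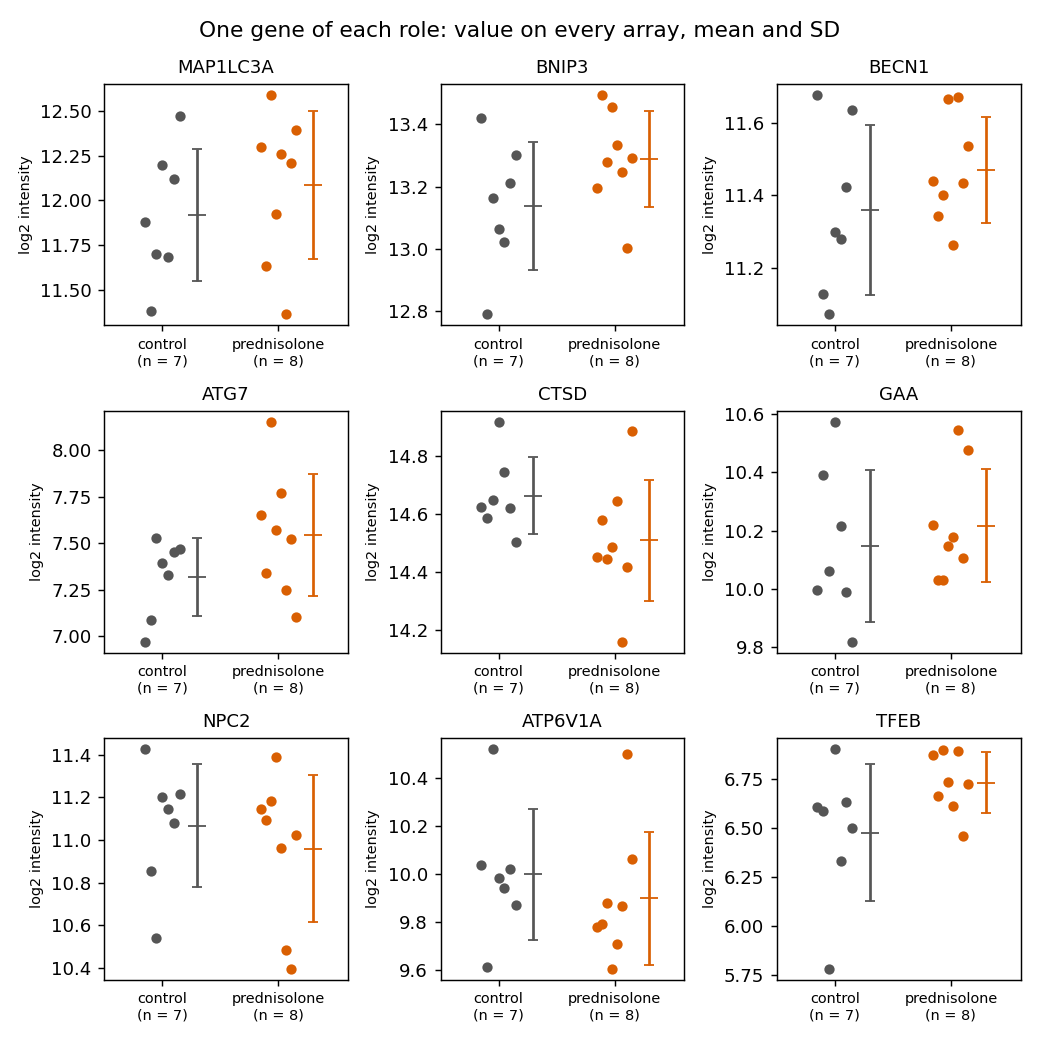
Log2 intensity (y axis) on every array for the gene with the smallest limma p in each of 9 roles. Points are animals, 7 control (grey) and 8 prednisolone (orange), and the bars beside them are mean and SD; in all 9 panels the groups overlap.

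The wider pathway gave the same counts of calls. Of 132 further genes listed for the steps of the route, 120 were tested and well above background on at least 1 treated array, 61 higher and 59 lower with a median log2 difference of 0.003. By limma 0 of 120 passed the adjusted p and 0 of 120 an unadjusted p under 0.05, and by the exact Wilcoxon test 1 of 120 passed the unadjusted p. Lysosomal proteases outside the 4 cathepsins were lower in 8 of 10, with a median of -0.08, and other hydrolases and their activators in 16 of 25, with a median of -0.03. Genes of initiation and membrane supply were higher in 9 of 12, with a median of 0.08, and those of cargo capture and mitophagy in 7 of 10, with a median of 0.08. Of the other lists, 7 of 14 fusion genes, 9 of 18 membrane and transport genes and 8 of 14 pump genes were higher. The counts higher were 1 of 4 for conjugation genes and 9 of 13 for genes of TFEB relatives and nutrient sensing.

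One gene per list, that with the smallest p, is given here and is an extreme of its list. Over all 120 genes the median absolute log2 difference was 0.09. ATP6V0B, a subunit of the pump's membrane sector, was the closest to a call, with 8 of 8 treated animals below the control median. Its means of 13.40 ± 0.21 (SD, n = 7) and 13.15 ± 0.23 (SD, n = 8) for prednisolone gave a difference of -0.24 (95% interval -0.51 to 0.03, exact permutation p = 0.0521, limma adjusted p = 0.999). ACP2, a lysosomal acid phosphatase measured in 6 controls, differed by -0.38 (95% interval -0.81 to 0.05), and CTSC, a protease that activates others by trimming dipeptides, by -0.34 (95% interval -0.76 to 0.07). FKBP8, a mitochondrial membrane protein with an Atg8-binding motif, differed by 0.31 (95% interval -0.07 to 0.70), and FLCN, a regulator of TFEB relatives at the lysosome, by 0.24 (95% interval -0.06 to 0.53). OSTM1, a partner of the lysosomal chloride transporter, differed by -0.26, ATG4A, a relative of ATG4B, by 0.18, and WIPI1, which binds the lipid made by the BECN1 complex, by 0.13. EPG5, a tether for fusion, is given no difference, since 1 treated array alone put it above background.

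The muscle ubiquitin ligases, which mark proteins for the proteasome and are common measures of wasting, did not pass the test. FBXO32 measured 14.29 ± 0.38 (SD, n = 7) without and 14.57 ± 0.67 (SD, n = 8) with prednisolone, a difference of 0.27 (95% interval -0.32 to 0.86). TRIM63 measured 16.03 ± 0.72 (SD, n = 7) and 15.97 ± 0.53 (SD, n = 8), a difference of -0.06 (95% interval -0.71 to 0.60). Although the means lay close, 7 of 8 treated animals lay under the TRIM63 control median, and the medians differed by -0.60 (exact Wilcoxon p = 0.779). Without C20 and P31 the difference of means was 0.05.

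The genes differed in how far animals of a group lay apart. The SD within groups ran from 0.12 in ATG4B and 0.14 in ATP6V0D1 to 0.40 in CTSL and 0.55 in NPC1. From the lowest to the highest of 15 animals this made 1.36-fold for ATG4B and 3.77-fold for NPC1, which was lowest in P28 and highest in P32. Roles did not sort by spread: the conjugation genes alone ran from ATG4B at 0.12 to ATG12 at 0.38. C20 was the lowest animal for 6 of 29 genes (MAP1LC3B, GABARAPL2, BECN1, ATG5, ATG12 and TFEB) and the lowest for 16.8% of all genes with a value on every array. P32 was the highest for 4 of 29 (MAP1LC3B, GABARAPL1, NPC1 and ATP6V0D1), against 5.01% of all genes, and C21 for 5 of 29 (ATG4B, CTSD, GAA, LAMP2 and TFEB), against 4.55%. C17 was the highest for 5 of 29, against 12.5% of all genes. P31 and C24 were each the lowest for 4 of 29, against 11.3% and 6.14%. C22 was neither the lowest nor the highest animal for any of the 29, against 2.25% and 2.18% of all genes.

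**Figure D3:**
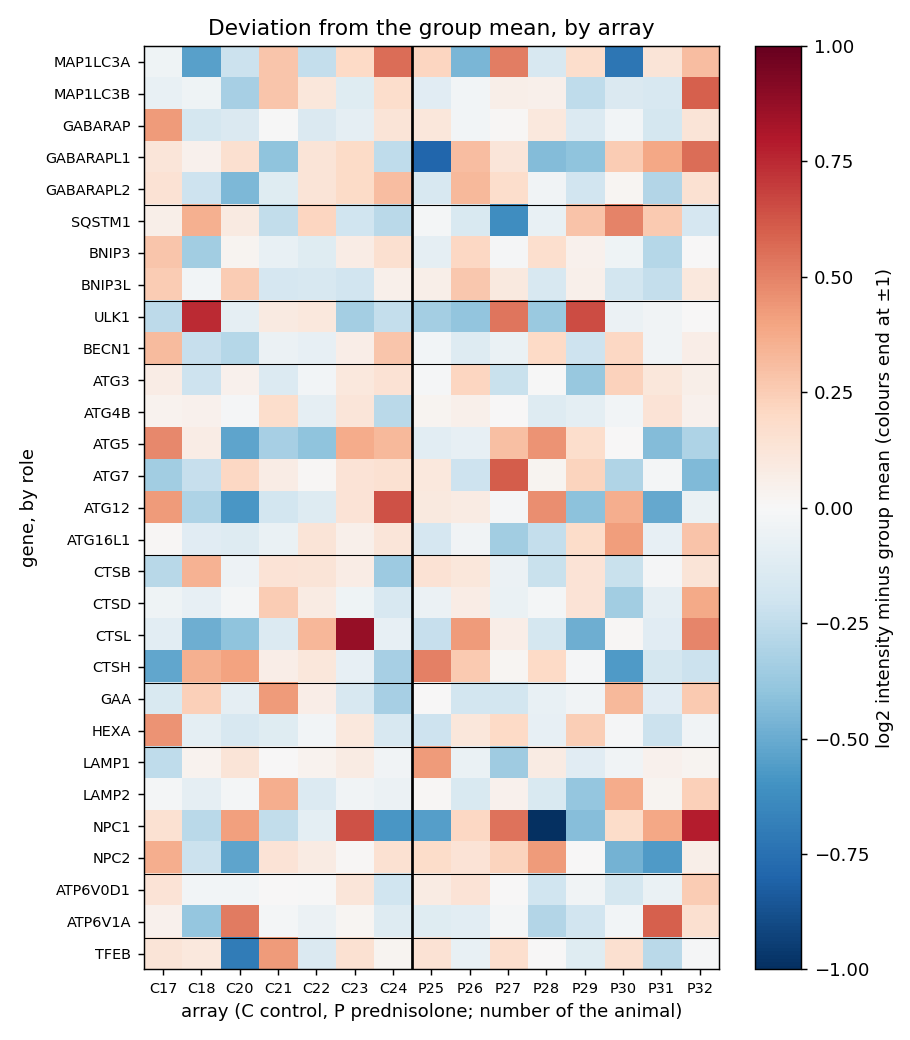
Log2 intensity minus the mean of the animal's group (colour, ending at ±1) for 29 genes (rows, by role) on 15 arrays (columns, controls left of the line). Red and blue cells mix within each role and each animal; the NPC1 row holds the widest spread.

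Whether the genes vary together across animals was read from the 15 arrays after each group's mean was removed. Over the 406 pairs of 29 genes the median Pearson r was 0.03, and 9.36% of pairs had r above 0.5 and 4.43% below -0.5. Over all gene pairs of the array the median was 0.01, with 8.65% and 7.03%. Pairs share arrays, so these shares are a description. Pairs within a role had a median r of 0.04 and pairs between roles 0.03. The Atg8 family had the highest median of the larger roles at 0.25 (10 pairs), followed by the cathepsins at 0.22 (6 pairs). The conjugation genes had a median of -0.12 (15 pairs), and the genes of the lysosomal membrane and of cholesterol export had -0.21 (6 pairs). TFEB and the 12 lysosome genes had a median r of 0.07, from -0.59 with ATP6V1A to 0.52 with NPC2. Both ends rested on C20 and P31: without them the r was 0.20 with ATP6V1A and -0.07 with NPC2.

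**Figure D4:**
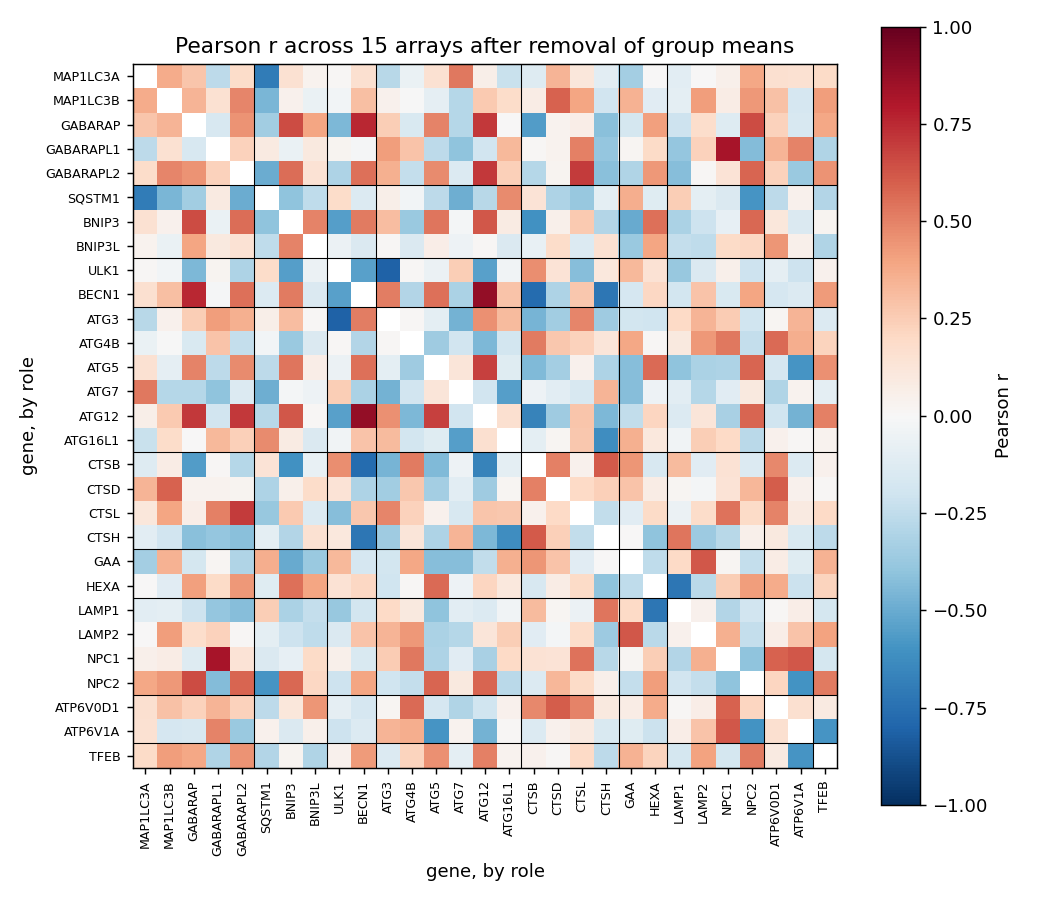
Pearson r between 29 genes across 15 arrays after removal of group means (colour from -1 to 1), genes ordered by role with lines between roles. No role forms a solid red block; the darkest cells lie between roles, such as BECN1 with ATG12 and ULK1 with ATG3.

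Across the 406 pairs, 1 passed an adjusted p of 0.05 and 45 (11.1%) had an unadjusted permutation p under 0.05. Permutation p-values were not counted over all gene pairs of the array, so neither count is shown to be particular to these genes. BECN1 and ATG12 correlated at r = 0.88 (100000 permutations within groups, p = 9e-05, adjusted p = 0.0365) and Spearman's rho = 0.82 (p = 0.00091, adjusted p = 0.123). Both were highest in C17, C24, P28 and P30 and both low in C18, C20 and P29. The r was 0.97 in controls and 0.73 in treated animals, 0.79 without C17 and C24, the 2 animals farthest from the median of BECN1, and 0.92 without C20 and P31. The call was lost with the values as deposited (adjusted p = 0.116), with quantile normalization (0.0974), with cyclic loess (0.0995) when any 1 control was left out (0.108 to 0.162), when P28, P29, P30 or P32 was left out (0.0528 to 0.0974), and without C17, C20 and P31 together (0.0893). By rho 0 of 406 pairs passed. ATG12 is named by description only, and the pair rests on that name.

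The next pairs did not pass the adjustment. GABARAPL1 and NPC1 correlated at r = 0.83 (permutation p = 0.00076, adjusted p = 0.111) and rho = 0.84 (p = 0.00036, adjusted p = 0.123), and at 0.79 without P25 and P28. Both were low in P25, P28, P29, C21 and C24 and highest in P32. GABARAP followed BECN1 (r = 0.76, rho = 0.74, permutation p = 0.00237 and 0.00425, adjusted p = 0.192 and 0.245) and ATG12 (r = 0.71, rho = 0.70, p = 0.00489 and 0.00686, adjusted p = 0.247 and 0.268). GABARAPL2 followed ATG12 (r = 0.71, rho = 0.67, permutation p = 0.00664 and 0.0114, adjusted p = 0.247 and 0.296), with r = 0.52 without C20 and P31. GABARAPL2 and CTSL stood at r = 0.70 and rho = 0.82 (permutation p = 0.00687 and 0.00062, adjusted p = 0.247 and 0.123).

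The lowest r was that of ULK1 and ATG3, at -0.81 with rho = -0.66 (permutation p = 0.00082 and 0.0134, adjusted p = 0.111 and 0.32). ULK1 was highest and ATG3 lowest in C18, P27 and P29, and without C18 and P29 the r was -0.66. BECN1 and CTSB stood at r = -0.77 and rho = -0.62 (permutation p = 0.00337 and 0.0287, adjusted p = 0.219 and 0.416), with r = -0.52 without C17 and C24. HEXA and LAMP1 stood at r = -0.73 and rho = -0.71 (permutation p = 0.00166 and 0.00484, adjusted p = 0.168 and 0.245), with r = -0.66 without C17 and P29.

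The 29 genes were also set against the mean level of 9 lists of cell type markers and against FBXO32 and TRIM63. Of these 319 relations, 3 passed an adjusted p of 0.05 and 24 (7.52%) an unadjusted one. No such count was made over all genes of the array, so the calls are not shown to be particular to the 29 genes. CTSH followed the fibroblast markers at r = 0.83 (permutation p = 0.00021, adjusted p = 0.0457) with rho = 0.81 (p = 0.00075, adjusted p = 0.0914), and the r was also 0.83 without P25 and P32. It followed the 12 macrophage markers at r = 0.82 (permutation p = 0.00043, adjusted p = 0.0457) with rho = 0.86 (p = 0.00017, adjusted p = 0.0542), and at 0.75 without C18 and P25. CTSH was high in C18, C20, P25 and P26 and low in C17, C24 and P30. Both marker means were also high in C18, P25 and P26 and low in C24 and P30. The fibroblast and macrophage relations were thus not independent of each other. Both relations held a positive r in controls (0.80 and 0.75) and in treated animals (0.88 and 0.93). Of the macrophage markers 11 of 12 were well above background on all 8 treated arrays, with mean levels of 7.75 to 9.19 in controls and 7.68 to 8.82 in treated animals. The 6 fibroblast markers ran from 11.54 to 12.72 and from 10.85 to 13.01. In whole muscle, a change in the number of such cells and a change of RNA per cell cannot be told apart.

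GABARAPL1 followed TRIM63 at r = 0.75 (permutation p = 0.00036, adjusted p = 0.0457) with rho = 0.70 (p = 0.00164, adjusted p = 0.131), at 0.82 in controls and 0.86 in treated animals. Without C21 and C24 the r was 0.70. NPC1 followed TRIM63 as well, at r = 0.76 with rho = 0.78 (permutation p = 0.00085 and 0.00086, adjusted p = 0.0678 and 0.0914), and FBXO32 at r = 0.71 with rho = 0.60 (permutation p = 0.00872 and 0.0294, adjusted p = 0.306 and 0.631). Without P28 and C24 the r of NPC1 with FBXO32 was 0.45. TRIM63 was low in the 5 animals in which GABARAPL1 and NPC1 were both low. By rho 0 of 319 relations passed, and the 3 calls were lost with quantile normalization (adjusted p = 0.0617 for each). They passed with the values as deposited, with equal medians and with cyclic loess. The calls also changed when single animals were left out. The r then ran from 0.78 to 0.90 for CTSH with fibroblast markers and 0.78 to 0.88 for CTSH with macrophage markers. For GABARAPL1 with TRIM63 it ran from 0.71 to 0.80. With 1 animal left out, the call of CTSH with fibroblast markers held without C18, C20 or P32, that of CTSH with macrophage markers without C17, and that of GABARAPL1 with TRIM63 without C18 or P31. Each was lost when any other animal was left out (adjusted p up to 0.144). Without C20 and P31 together the macrophage relation had an adjusted permutation p of 0.126. Without C17 as well it had 0.0144, and the TRIM63 relation had 0.122.

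NPC2 and ATP6V1A moved with the testis germ cell transcripts in opposite directions. NPC2 stood at r = -0.79 with rho = -0.67 (permutation p = 0.00134 and 0.0107, adjusted p = 0.0855 and 0.427). ATP6V1A stood at r = 0.77 but rho = 0.45 (permutation p = 0.00196 and 0.109, adjusted p = 0.104 and 0.754). Neither passed the adjustment, though the r of NPC2 did with equal medians (adjusted p = 0.0234) and without C18 (adjusted p = 0.00957). Without C20 and P31 the r of NPC2 was -0.57 and that of ATP6V1A 0.40. Relative to the mean of each animal's group, NPC2 was lowest in P31, C20 and P30, and the germ cell transcripts were highest in these 3 animals. ATG16L1 went the other way: its r with these transcripts was 0.42 over all animals (rho = 0.49, permutation p = 0.166 and 0.0758, adjusted p = 0.762 and 0.708). The r of ATG16L1 was 0.87 without C20 and P31 (adjusted permutation p = 0.00319) and 0.92 without C17 as well (adjusted permutation p = 0.00319). C20 and P31 had the highest germ cell transcripts of their groups, so these r values rest on the other animals. Of those, P30 was highest relative to its group mean in both germ cell transcripts (2.29) and ATG16L1 (0.416). How far these r values depend on P30 was not tested. Of the germ cell genes only 3 were well above background on all 8 treated arrays, and their mean level fell to 4.29 in treated animals. Some of these levels may therefore lie near background. The part of these transcripts in the values of NPC2, ATP6V1A and ATG16L1 was not tested.

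**Figure D5:**
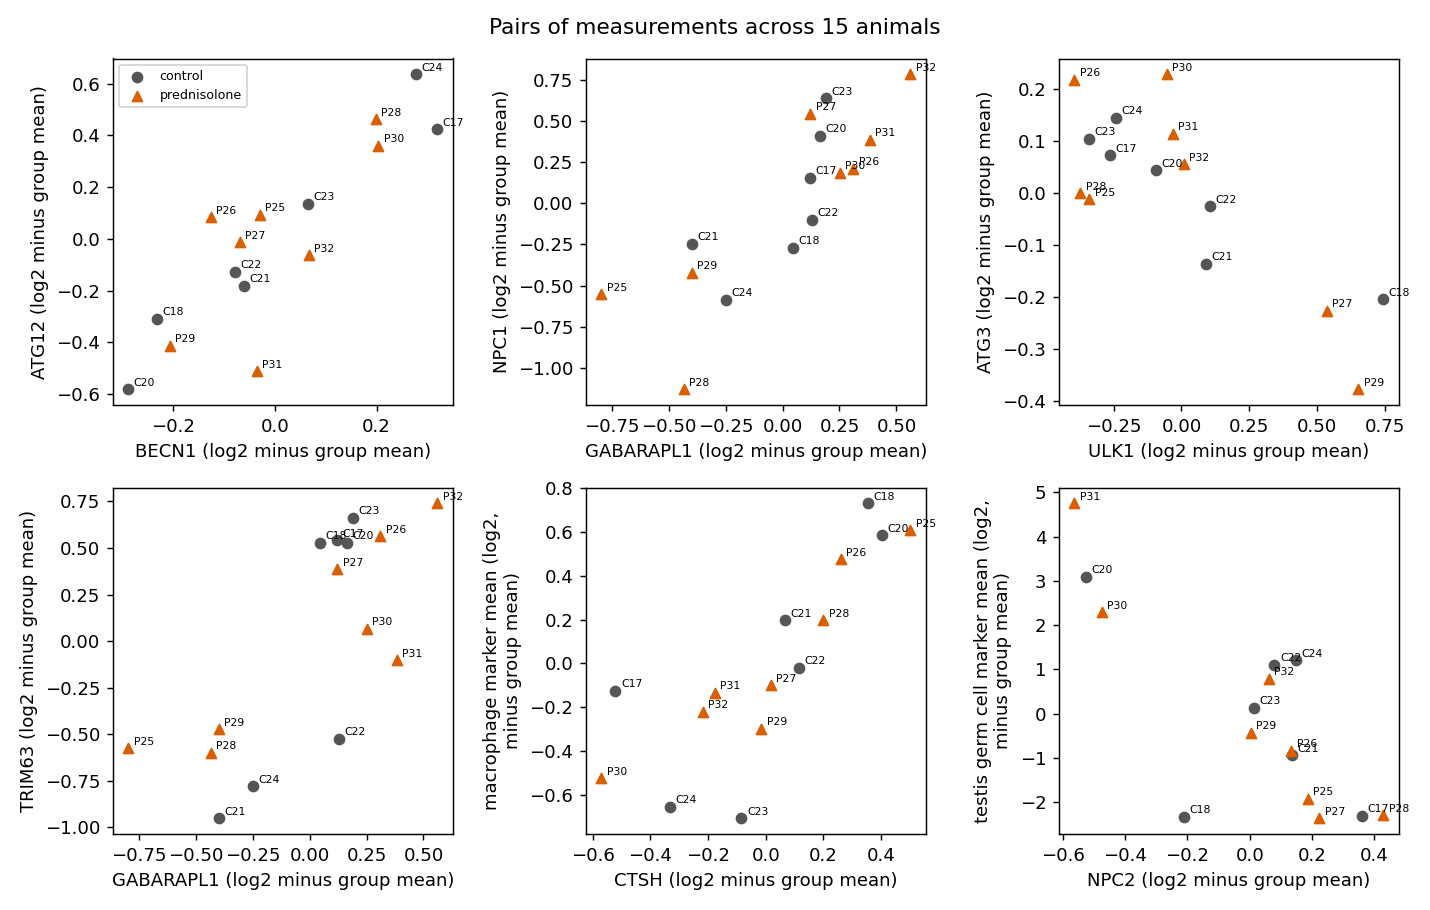
Pairs of measurements in 15 animals (circles control, triangles prednisolone), each axis a log2 level minus its group mean; the last 2 panels use the mean of macrophage and of testis germ cell markers. BECN1 and ATG12 run together (r = 0.88), ULK1 and ATG3 run opposite (r = -0.81), and C20, P30 and P31 stand apart in the last panel.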

How the data were processed

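The deposited value table holds 1 linear intensity per spot and array. Per the series' design text the authors scanned the slides at high and low sensitivity and took Feature Extraction's background-subtracted processed signal, and R 2.11.1 is the tool that the submitters' processing notes name. Their scaling between arrays is not stated there. The deposited scanner intensity and flags of the 8 treated arrays (Feature Extraction 9.5.1.1, per the file headers) correlated with the table at r of at least 0.999789; those of the controls were not used here, so their slides are unknown. The treated arrays lay on 5 slides.

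From the table, log2 values were shifted to a common 75th percentile over the 14324 probes with values on all 15 arrays, and the 2 spots of a probe averaged. Of 21475 probes 16983 were named, through the array's gene identifiers, accessions and descriptions and a RefSeq gene table. A gene was read from its brightest probe and tested with at least 3 values per group, by limma 3.58.1 in R 4.3.3 (lmFit and eBayes, Benjamini-Hochberg over 15062 genes), a script tested on simulated data. Errors are SDs between animals, and the number of arrays limits the precision. The numbers in the sample labels were taken as animals. Correlations used group-centred values and 100000 permutations within groups, two-sided, adjusted over 406 pairs or 319 relations.

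The members, lists and tests were chosen with earlier results of these data known. Named were the 29 measured members, the member with the smallest p in each role, 1 gene per pathway list by smallest p, the 6 highest and 3 lowest correlations, FBXO32, TRIM63, and members whose probes disagreed. Relations with marker means, ATG5 probes, C20 with TFEB, and NPC2, ATP6V1A and ATG16L1 with germ cell transcripts were chosen after values were seen. Alternatives were other scalings, filters, probe rules, tests, array weights, a slide block and left-out animals. No sequences or genome positions are given.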

Additional observations from a re-analysis of the deposited data

Results flagged for a closer look

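Among 58 sets of values (29 genes in 2 groups), 3 had 1 animal far from the rest by Dixon's ratio of gap to range, where chance gives about 1 in 20. MAP1LC3B, an LC3 gene, stood at 14.63 in P32, with the next treated animal at 14.08. ULK1 stood at 12.71 in C18, with the next control at 12.07. LAMP2 stood at 12.39 in C21, with the next control at 12.00.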

How the results depend on the processing

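Over 28 alternatives limma and the exact Wilcoxon test called 0 of 29 members, and adjusted p-values of members stayed at 0.7 or above. Over all genes 1 was called without C20 and P31, without those and C17, and when C23 or P31 alone was left out (range 0 to 1), and 0 otherwise. Small differences changed sign, none past the threshold; the cause was not tested. Equal medians gave GABARAP 0.015. Quantile normalization gave ATG3 -0.0001, ATG16L1 0.0061, LAMP1 -0.019 and ATP6V0D1 -0.0038. Cyclic loess gave ATG3 -0.018, ATG4B -0.012 and ATP6V0D1 -0.017. The values as deposited gave ATG3 -0.0051, and the mean of probes gave LAMP2 0.073. Array weights gave GABARAP 0.051, BNIP3L 0.056, ATG3 -0.016, LAMP1 -0.0011 and TRIM63 0.10. Without C20 and P31 the values were BNIP3L 0.029, ATG3 -0.0051, ATG4B -0.0069 and TRIM63 0.046. Without C17 too (chosen after seeing the data) they were GABARAP 0.075, BNIP3L 0.088, ULK1 -0.016, ATG4B -0.0007, CTSB -0.014, HEXA 0.033, LAMP1 -0.0036 and TRIM63 0.17. Differences of medians, used with the Wilcoxon test, were GABARAP 0.074, GABARAPL1 0.0001, GABARAPL2 -0.073, BNIP3L 0.035, ATG3 -0.013, ATG4B -0.0024, ATG5 -0.044, HEXA 0.019, LAMP1 -0.013, LAMP2 0.030 and NPC1 0.21. A slide block on the treated arrays, also added later, turned no sign.

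With each animal left out in turn, the ranges that crossed 0 were MAP1LC3B -0.020 to 0.11, GABARAP -0.037 to 0.065, GABARAPL1 -0.15 to 0.048, GABARAPL2 -0.012 to 0.11, SQSTM1 -0.11 to 0.054, ULK1 -0.043 to 0.17, ATG3 -0.030 to 0.058, ATG4B -0.029 to 0.045, ATG5 -0.013 to 0.15, ATG16L1 -0.086 to 0.023, CTSB -0.011 to 0.11, HEXA -0.090 to 0.019, LAMP1 -0.035 to 0.077, LAMP2 -0.078 to 0.036, NPC1 -0.20 to 0.070, ATP6V0D1 -0.026 to 0.039 and TRIM63 -0.22 to 0.053. Ranges on 1 side of 0 could still be wide, such as ATG12 0.0063 to 0.21, GAA 0.013 to 0.14, ATP6V1A -0.19 to -0.012 and NPC2 -0.19 to -0.026. Genes with an unadjusted p under 0.05 numbered 369 to 1103 with an animal left out, 977 with array weights, 831 without C20 and P31, and 937 without C17 too.

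The median r of members ran from -0.0076 to 0.044 with an animal left out and was 0.0905 with equal medians, where all genes stood at 0.0376. Member pairs past the adjusted p numbered 0 with the values as deposited, quantile normalization, cyclic loess, treated animals alone, or without C17, C20 and P31. They numbered 2 without C20 and P31 (BECN1 with ATG12, and ATG12 with CTSB) and 2 in controls alone (MAP1LC3A with SQSTM1, and BECN1 with CTSH), and 0 to 1 with an animal left out. Relations with marker means numbered 0 with quantile normalization and in either group alone, 5 with equal medians, and 0 to 4 with an animal left out. No paired analysis was possible because the groups share no replicate numbers.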
